A study of Capra hircus with 13 samples.

Results

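The m6A writers and erasers described here are 8 genes, taken by name as parts of the machinery that sets or removes N6-methyladenosine (m6A) on mRNA and not by any measured value. The 6 writer genes were *METTL3*, *METTL14*, *WTAP*, *ZC3H13*, *RBM15* and *CBLL1*, and the 2 eraser genes were *ALKBH5* and *FTO*. All 8 were listed in each of the 5 deposited tables, among 18138 genes that these tables share. Their values were read in 13 RNA-seq libraries of goat oocytes and cleavage stage embryos, made by the Smart-seq2 method from cells lysed directly.

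m6A is a methyl mark on adenosines inside mRNA that shapes how long a transcript lasts and how well it is translated. METTL3 carries the catalytic site of the writer complex, METTL14 is its non-catalytic partner that helps to bind RNA, and WTAP, ZC3H13, RBM15 and CBLL1 belong to the regulatory part that positions the complex in the nucleus and on its targets. ALKBH5 and FTO are iron-dependent dioxygenases that take the methyl group off, and proteins with a YTH domain, such as YTHDF2, read the mark. In the first cleavages the embryo lives on mRNA stored in the oocyte and then starts to transcribe its own genome, a change known as the maternal-to-zygotic transition.

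The untreated groups were metaphase II (MII) oocytes, 4-cell stage embryos and 8-cell stage embryos, with 3 libraries each. The injected groups were 8-cell stage embryos from zygotes that received siRNA into the cytoplasm 8 h after in vitro fertilization (IVF), with 2 libraries each. The NC embryos, labelled WT in the records, received a universal negative control siRNA, and the *YTHDF2* knockdown (YTHDF2-KD) embryos received a mixture of 2 siRNAs against *YTHDF2*, at 20 µM. Each injected library pooled 15 embryos. The untreated libraries came from 2 earlier studies of the same laboratory, and which library came from which study is not given in the sources used here, so the part of the source study in the differences between stages could not be tested. Nothing states that the replicates came from separate animals, so the p-values measure the spread between libraries, which may be technical.

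The untreated libraries held 26853876 to 42495116 fragments in total, recovered from the steps of their FPKM values (fragments counted per kilobase of exon and per unit of sequencing depth), and the depth of the injected libraries is unknown. Of the total fragments, 64.9% to 66.3% fell on the shared genes in the MII oocytes, against 94.7% to 97.0% in the embryos. The MII table listed 18880 gene names, and the 4- and 8-cell tables listed 21869 each. Comparisons against MII oocytes therefore also crossed tables of unequal length, unlike that between the 8- and 4-cell stages. The part of this in the results was not tested. The 8-cell library of replicate 1 stood apart: its values correlated with those of replicates 2 and 3 at *r* = 0.854 and 0.898, where these correlated with each other at 0.966, and it held 9951 genes at 1 FPKM or more against 8073 to 9100 in the other untreated libraries. Among the untreated libraries, it had the highest value of 3 of the 8 genes. All 10 oocyte markers were detected in every group, and summed to 5875 to 6329 FPKM in the MII oocytes, 10446 to 11670 in 4-cell and 6480 to 8852 in 8-cell embryos. *BTG4* was the largest part of these sums, at 3551 to 4717 FPKM in the MII oocytes, 7033 to 8843 in 4-cell and 3400 to 6040 in 8-cell embryos. The sums therefore mostly follow *BTG4* and not each marker. The summed level of the genome activation markers was 10.4 to 14.2 FPKM in the MII oocytes, 54.3 to 127 in 4-cell embryos and 334 to 1380 in 8-cell embryos, against 3153 to 3905 in the NC and 3123 to 3480 in the knockdown embryos. The 6 to 8 listed cumulus cell markers summed to 40.8 to 59.4 FPKM in the MII oocytes, 51.3 to 65.2 in 4-cell embryos, 84.4 to 127 in 8-cell embryos, 35.5 to 37.3 in the NC embryos and 66.7 to 68.7 in the knockdown embryos, with *FSHR* at 0 in all injected libraries and *FOXL2* at 0 in the knockdown. In the untreated libraries the cumulus sums rested mainly on *STAR* (26.7 to 95.6 FPKM), *HAS2* (8.15 to 29.4) and *TNFAIP6* (0.782 to 19.8). *PTX3*, *CYP19A1*, *FSHR* and *AMHR2*, where listed, were at most 2.35 FPKM there. The listed sperm markers summed to at most 1.06 FPKM in the untreated libraries, 12.7 to 21.7 in the NC embryos and 5.13 to 27.1 in the knockdown embryos. The part of these markers in the results was not tested.

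The writer genes were present at very unequal levels per length. *CBLL1*, which encodes the ubiquitin ligase Hakai, stood above the others in each of the 13 libraries, and made up 73.7% to 78.9% of the summed writer FPKM in the MII oocytes, 66.4% to 72.4% in 4-cell embryos and 80.5% to 84.2% in 8-cell embryos. Its lowest untreated value, 158 FPKM in 4-cell embryos, lay above the highest untreated value of any other writer or eraser. *FTO* was the lowest of the 8 in every library. In the MII oocytes the mean levels ran from *CBLL1* through *METTL14*, *WTAP*, *ZC3H13*, *ALKBH5*, *METTL3* and *RBM15* to *FTO*, and the neighbours from *METTL14* down to *METTL3* overlapped in their ranges. In 4-cell embryos *METTL14* held the second place with no overlap with the genes below it. In 8-cell embryos *ALKBH5* had the second highest mean, and its range overlapped that of *METTL14*. The fragments behind these values ran from 43 for *FTO* in the 4-cell library of replicate 3 to 44284 for *CBLL1*, so counting error was up to 15.2% of the value for *FTO*, at most 9.62% for *METTL3* and at most 4.37% for the other 6 genes.

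**Figure D1:**
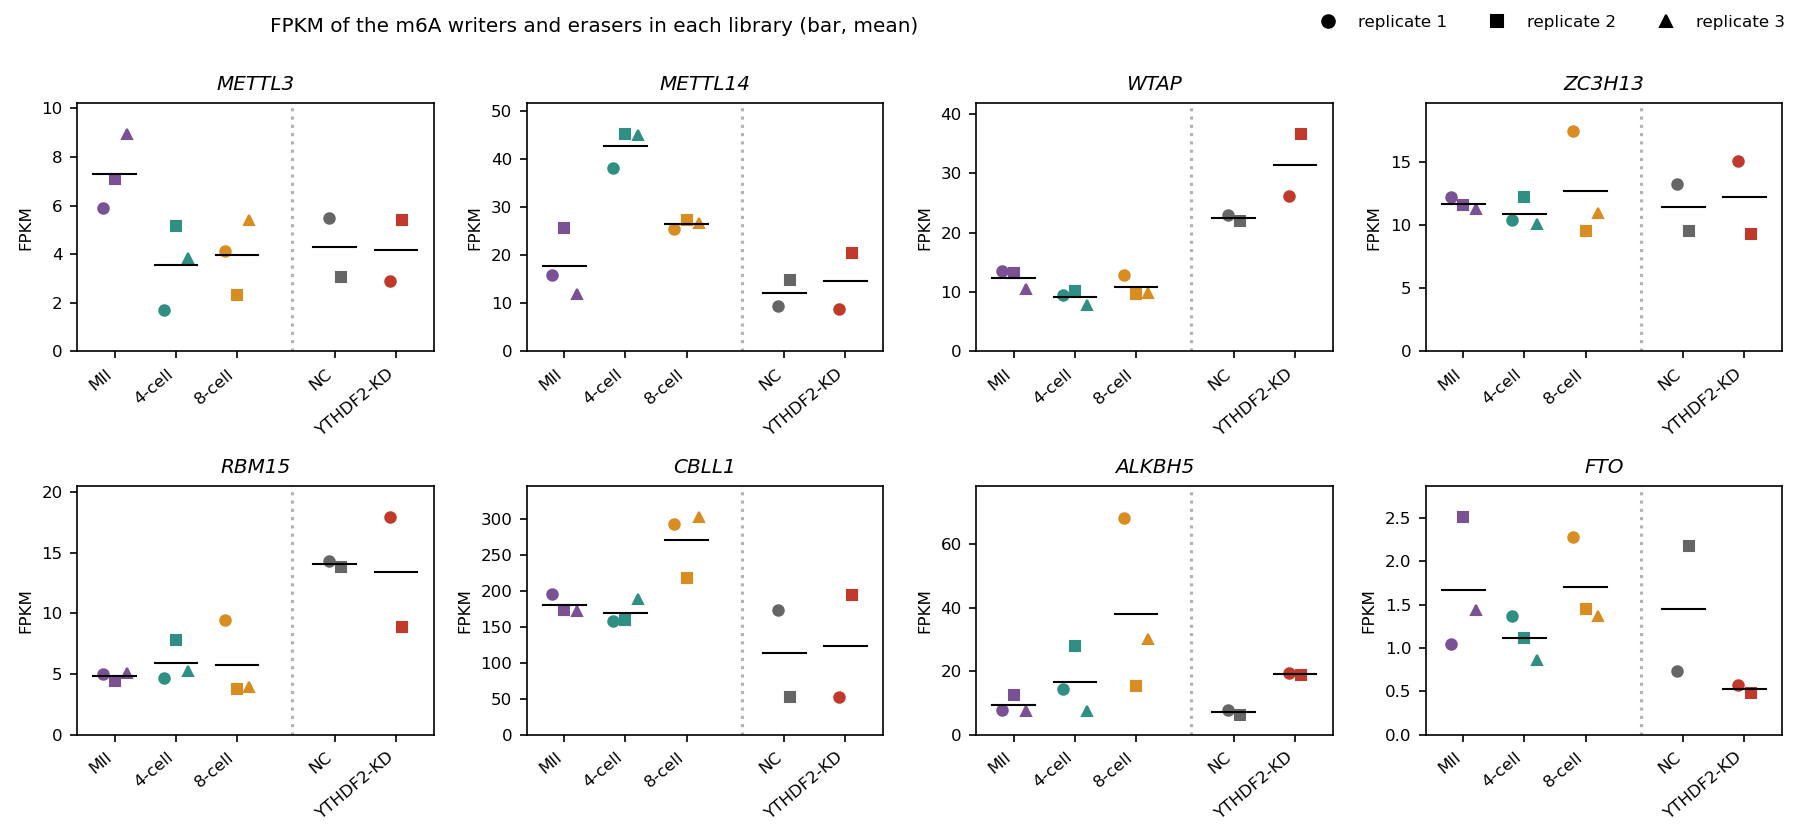
Each panel shows 1 gene, with its FPKM on the vertical axis (a linear axis that starts at 0) and the 5 groups on the horizontal axis. Points are libraries, shaped by replicate number, bars are group means, and the dotted line parts the untreated from the injected libraries, which were normalized apart. *METTL14* sits between 38.2 and 45.2 in the 4-cell libraries, above all other libraries, and *ALKBH5* in the 2 knockdown libraries sits at 19.3 and 18.7, above the 7.69 and 6.28 of the NC libraries.

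The first question was how the writers and erasers change from the oocyte to the cleaving embryo. The test was limma on the log2 of FPKM + 1 across all genes, and a gene was called at a Benjamini-Hochberg adjusted p under 0.05 over the 9090 genes of the fit. Between the 4-cell stage and the MII oocytes 1 of the 8 genes was called, *METTL14*, which was higher, where 31.2% of all genes tested were called, 24.7% higher and 6.42% lower. Between the 8-cell stage and the MII oocytes 2 of the 8 were called, *CBLL1* and *ALKBH5*, both higher, where 37.4% of all genes were called, 27.3% higher and 10.0% lower. Between the 8- and the 4-cell stages 1 of the 8 was called, *CBLL1*, which was higher, where 8.29% of all genes were called, 3.06% higher and 5.24% lower. In 4-cell embryos against MII oocytes the rescaled fits described next (median ratios, equal summed FPKM and quantile normalization) called 3, 3 and 4 of the 8 genes, where 22.6%, 23.1% and 24.0% of all genes were called, so how the count reads against the background depends on the scaling. The median log2 fold change of the 8 genes was -0.10, 0.09 and 0.18 in these comparisons, against 0.29, 0.37 and 0.07 for all genes tested.

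These changes depend on how the libraries are scaled. Rescaling by median ratios brought the median of all genes to 0.06 in 4-cell embryos and 0.05 in 8-cell embryos, and lowered the log2 fold change of each of the 8 genes in both comparisons. It also turned the calls over all genes from 2249 higher and 584 lower to 1093 higher and 939 lower in 4-cell embryos, and from 2486 higher and 912 lower to 1364 higher and 1354 lower in 8-cell embryos. Where a rescaling changes the call of a writer or eraser, its value is given beside it.

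Of the core pair of the writer complex, *METTL14* measured 15.9, 25.8 and 11.9 FPKM in the MII libraries, 38.2, 45.2 and 45.0 in the 4-cell libraries and 25.5, 27.4 and 26.7 in the 8-cell libraries. Every 4-cell library lay above every oocyte and every 8-cell library, while the 8-cell range overlapped that of the oocytes through MII replicate 2. From the MII oocytes to the 4-cell stage *METTL14* rose, with a log2 fold change of 1.28 (SE 0.25, adjusted p = 0.00474), and its mean was 2.40-fold higher. The adjusted p was under 0.05 in 19 of 20 settings, many of which keep the log2 fold change as it was by design. All 3 rescaled fits lowered it. Median-ratio rescaling gave 0.99 (adjusted p = 0.0199) and quantile normalization 0.89 (adjusted p = 0.0218). Setting the summed FPKM of the libraries equal gave 0.76 with an adjusted p of 0.0598. In 8-cell embryos the log2 fold change against MII oocytes was 0.61 (adjusted p = 0.0833), and it was 0.90 (adjusted p = 0.00958) without MII replicate 2, 0.37 (adjusted p = 0.268) without MII replicate 3 and 0.21 to 0.25 in the 3 rescaled fits. The difference between the 8- and 4-cell stages was -0.67 (95% interval -1.23 to -0.10, adjusted p = 0.142).

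*METTL3*, the catalytic subunit, measured 5.89, 7.10 and 8.94 FPKM in the MII libraries, 1.71, 5.15 and 3.83 in the 4-cell libraries and 4.13, 2.34 and 5.41 in the 8-cell libraries. All 6 embryo libraries lay below all 3 oocyte libraries. The log2 fold change against MII oocytes was -0.93 (SE 0.36, adjusted p = 0.0758) in 4-cell embryos and -0.78 (SE 0.36, adjusted p = 0.115) in 8-cell embryos, so neither passed the threshold on the deposited scale. Leaving out 4-cell replicate 2 gave -1.18 (adjusted p = 0.0495) for the 4-cell stage, while leaving out 4-cell replicate 1 gave -0.59 (adjusted p = 0.237). Leaving out 8-cell replicate 2 gave -0.52 (adjusted p = 0.288) for the 8-cell stage. In all 3 fits that rescaled the libraries *METTL3* was called lower at both stages, with log2 fold changes of -1.37 to -1.14 in 4-cell embryos and -1.15 to -1.10 in 8-cell embryos. The 8- and 4-cell stages differed by 0.15 (95% interval -0.65 to 0.95, adjusted p = 0.822).

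The ratio of *METTL14* to *METTL3* FPKM does not depend on the scaling of a library, since both values come from the same one. It was 2.69, 3.63 and 1.33 in the MII libraries, 22.3, 8.78 and 11.7 in the 4-cell libraries and 6.17, 11.7 and 4.93 in the 8-cell libraries. Each embryo library lay above each oocyte library. The mean log2 ratio was 1.23 ± 0.74 (SD, *n* = 3) in the MII oocytes, 3.72 ± 0.69 in 4-cell embryos and 2.82 ± 0.65 in 8-cell embryos. The ratio was 5.61-fold higher in 4-cell embryos and 3.01-fold higher in 8-cell embryos than in the MII oocytes, each with p = 0.1 in a two-sided exact permutation test, which 3 libraries against 3 cannot go below. The 8-cell ratio differed from the 4-cell ratio by -0.90 on the log2 scale (exact permutation p = 0.2), with ranges that overlapped. Adjusted over the 4 comparisons of this ratio, the exact permutation p-values of these 3 were 0.2, 0.2 and 0.267.

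**Figure D2:**
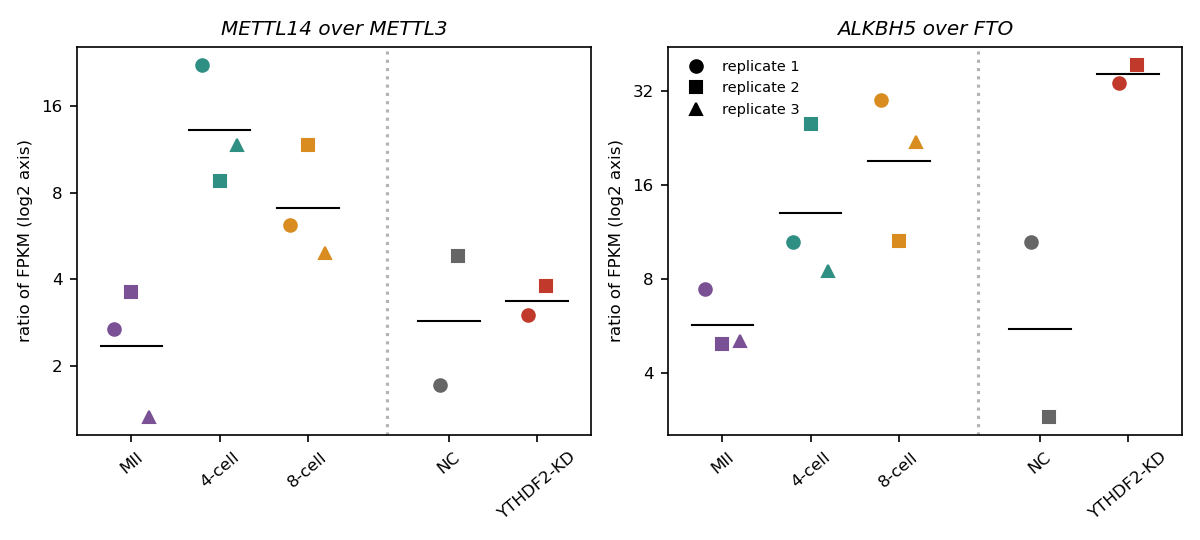
The vertical axes give the ratio of the FPKM of *METTL14* to *METTL3* (left) and of *ALKBH5* to *FTO* (right) on a log2 axis, by group, with points for libraries and bars for the geometric means. The *METTL14* ratio is 1.33 to 3.63 in the oocytes and 4.93 to 22.3 in the untreated embryos, and the *ALKBH5* ratio is 33.9 and 39 in the knockdown libraries against 10.5 and 2.89 in the NC libraries.

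Of the 4 regulatory genes among the 8, *CBLL1* was called. Its FPKM was 195, 173 and 171 in the MII libraries, 158, 159 and 189 in the 4-cell libraries and 292, 217 and 302 in the 8-cell libraries. All 8-cell libraries lay above all oocyte and 4-cell libraries. *CBLL1* rose in 8-cell embryos by a log2 fold change of 0.57 (SE 0.17, adjusted p = 0.0253) against MII oocytes and of 0.67 (SE 0.17, adjusted p = 0.0427) against the 4-cell stage, and the means were 1.50-fold and 1.60-fold higher. Against the MII oocytes the call was lost in the 3 rescaled fits, with log2 fold changes of 0.10 to 0.19, and without any 1 of MII replicates 1, 2 and 3 and 8-cell replicates 1 and 3, with 0.48 to 0.63 and adjusted p-values of 0.0506 to 0.0939. Against the 4-cell stage the log2 fold change stayed between 0.58 and 0.82 in all settings, but the adjusted p was under 0.05 in 6 of 20 settings and in 1 of the 9 fits without 1 library, that without 8-cell replicate 2. The call was lost after median-ratio rescaling (0.59, adjusted p = 0.180) and quantile normalization (0.67, adjusted p = 0.0526). In 4-cell embryos *CBLL1* differed from the MII oocytes by -0.10 (adjusted p = 0.704), and it was called lower in 2 of the rescaled fits, at -0.63 with the summed FPKM set equal and -0.57 after quantile normalization.

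*WTAP*, the subunit that links the catalytic pair to the rest of the complex, measured 13.5, 13.2 and 10.5 FPKM in the MII libraries, 9.53, 10.2 and 7.86 in the 4-cell libraries and 12.9, 9.62 and 9.77 in the 8-cell libraries. The 4-cell libraries lay below the oocyte libraries, by a small gap. The log2 fold change was -0.39 (adjusted p = 0.180) in 4-cell embryos and -0.19 (adjusted p = 0.50) in 8-cell embryos against MII oocytes. The 4-cell value was -0.88 to -0.67 and called lower in the 3 rescaled fits, and the 8-cell value was called lower after quantile normalization, at -0.59.

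*ZC3H13*, a zinc finger protein that holds the complex in the nucleus, measured 12.2, 11.6 and 11.3 FPKM in the MII libraries, 10.4, 12.2 and 10.1 in the 4-cell libraries and 17.5, 9.55 and 11.0 in the 8-cell libraries. *RBM15*, an RNA-binding adaptor of the complex, measured 4.96, 4.39 and 5.08 FPKM, then 4.68, 7.80 and 5.27, then 9.46, 3.75 and 3.92 in the same order. Both genes had overlapping ranges in all stage comparisons, and both had their highest and lowest 8-cell values in replicates 1 and 2. In 8-cell embryos the difference from the MII oocytes was 0.06 (95% interval -0.46 to 0.59, adjusted p = 0.850) for *ZC3H13* and 0.11 (95% interval -0.63 to 0.84, adjusted p = 0.823) for *RBM15*. Without the 8-cell library of replicate 1 these were -0.17 and -0.26, so their sign rests on that library. In 4-cell embryos they were -0.10 (adjusted p = 0.788) and 0.23 (adjusted p = 0.641).

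**Figure D3:**
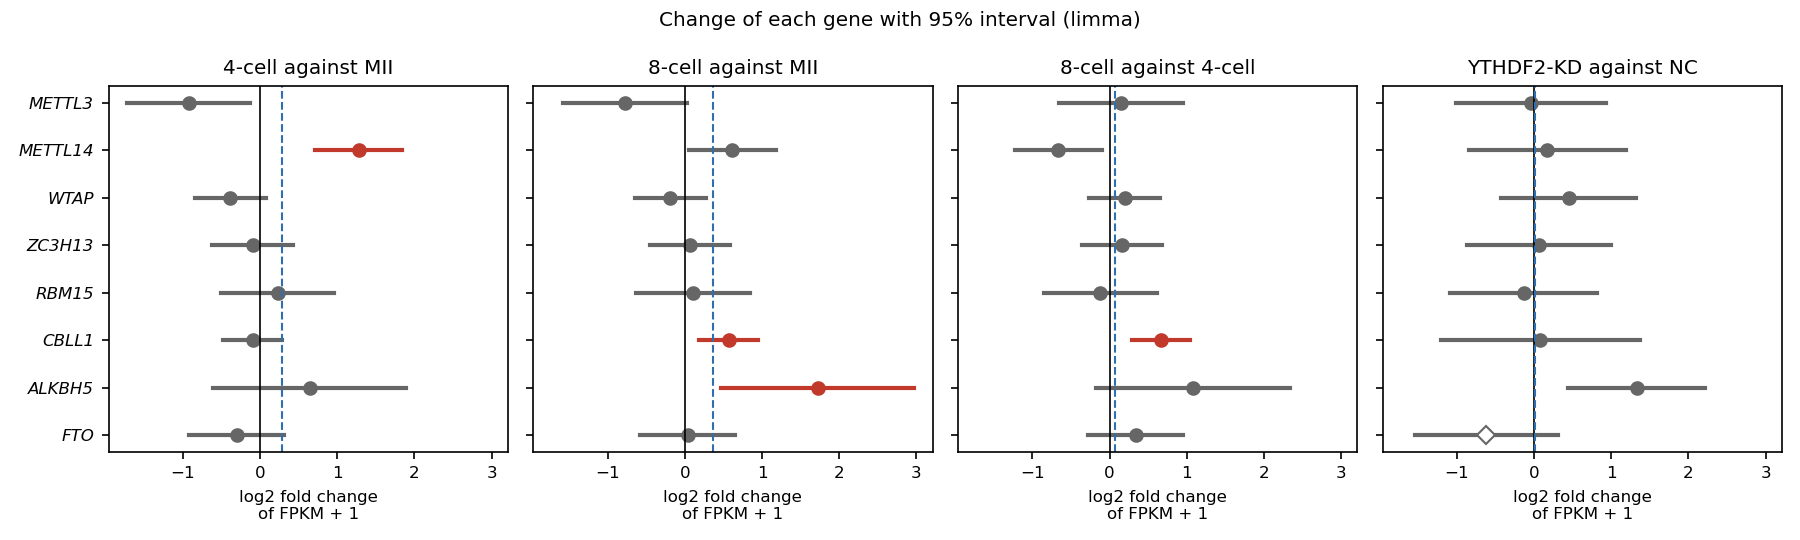
Each panel is 1 comparison, with the log2 fold change of FPKM + 1 and its 95% interval from limma for each gene, red where the adjusted p was under 0.05. The blue dashed line is the median of all genes tested, and the open diamond is *FTO* in the knockdown from the fit without a filter. *METTL14* in 4-cell embryos (1.28) and *CBLL1* (0.57) and *ALKBH5* (1.72) in 8-cell embryos are the red points against MII oocytes, of which *CBLL1* is not called in the rescaled fits *METTL14* is not called with the summed FPKM set equal, and *ALKBH5* is called in 1 of the 3 rescaled fits.

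Of the erasers, *ALKBH5* varied widely between the libraries of each embryo stage. It measured 7.80, 12.5 and 7.31 FPKM in the MII libraries, 14.3, 28.1 and 7.35 in the 4-cell libraries and 68.2, 15.4 and 30.2 in the 8-cell libraries, so the highest 8-cell library held 4.43-fold the lowest. All 8-cell libraries lay above all oocyte libraries, while the 4-cell range overlapped both. *ALKBH5* was higher in 8-cell embryos than in the MII oocytes by a log2 fold change of 1.72 (SE 0.56, adjusted p = 0.0359). The adjusted p was under 0.05 in 10 of 20 settings. Without 8-cell replicate 1, the library that stood apart, the value was 1.19 (adjusted p = 0.0800), and the call was also lost without MII replicate 1 (1.64), MII replicate 3 (1.59), 8-cell replicate 3 (1.76) or 4-cell replicate 1 (1.72), the last a library of neither group that enters through the shared estimate of the spread. It was lost with no filter (1.72), with the summed FPKM set equal (1.33) and after quantile normalization (1.40), but not after median-ratio rescaling (1.37). The 4-cell stage differed from the MII oocytes by 0.64 (95% interval -0.61 to 1.89, adjusted p = 0.423), and the 8-cell from the 4-cell stage by 1.08 (95% interval -0.17 to 2.34, adjusted p = 0.268). Without 1 library these values ran from 0.19 to 1.09 and from 0.55 to 1.58.

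*FTO* stayed near the floor of the filter. It measured 1.05, 2.51 and 1.44 FPKM in the MII libraries, 1.37, 1.12 and 0.866 in the 4-cell libraries and 2.28, 1.45 and 1.37 in the 8-cell libraries, on 43 to 153 fragments a library. The 8-cell values lay above the 4-cell values by a margin of less than 0.01 FPKM, and the fit gave 0.34 (95% interval -0.27 to 0.96, adjusted p = 0.469). The difference from the MII oocytes was -0.30 (adjusted p = 0.442) in 4-cell embryos and 0.04 (adjusted p = 0.921) in 8-cell embryos. The 8-cell sign turned in the 3 rescaled fits, at -0.22 to -0.19, and without MII replicate 1, MII replicate 3 or 8-cell replicate 1, at -0.13, -0.01 and -0.11. The ratio of *ALKBH5* to *FTO* was 4.97 to 7.45 in the MII libraries, 8.49 to 25.1 in the 4-cell libraries and 10.6 to 30.0 in the 8-cell libraries.

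**Figure D4:**
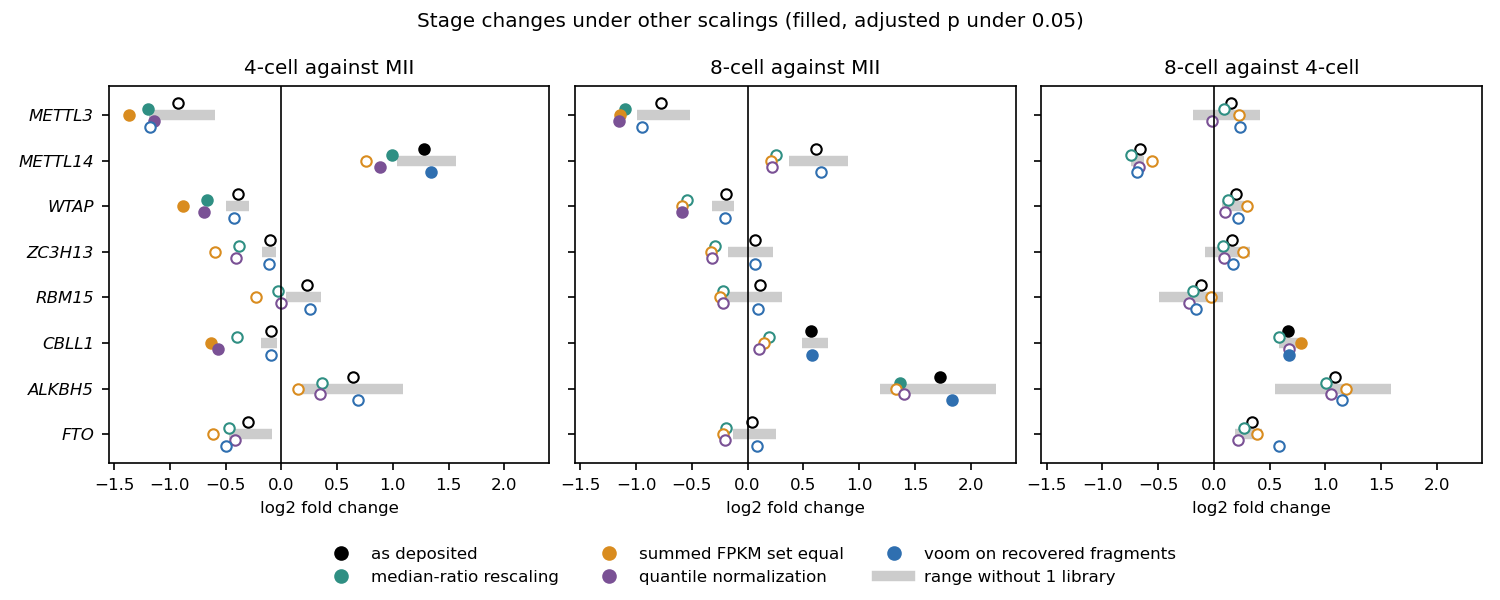
Points give the log2 fold change of each gene in the 3 stage comparisons on the deposited scale, in 3 rescaled fits and in a limma voom fit on the recovered fragments, filled where the adjusted p was under 0.05, and grey bars give the range without 1 library. *METTL3* moves from open points at -0.93 and -0.78 to filled points at -1.37 to -1.14 and -1.15 to -1.10 when the libraries are rescaled, while *CBLL1* in 8-cell embryos moves from 0.57 to 0.10 to 0.19.

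In number of groups that did not overlap, the 8 genes gave 1 higher and 2 lower in 4-cell embryos against MII oocytes, where 37.8% of all genes were higher and 14.1% lower in this way. In 8-cell embryos they gave 2 higher and 1 lower, against 36.4% and 13.7% of all genes. Between the 8- and the 4-cell stages they gave 2 higher and 1 lower, against 11.6% and 16.6%. The study set thresholds of 0.05 on the unadjusted p and of 2-fold on the change, on values from a count model. With these thresholds put on the limma fit, here called the rule of the study, 1, 1 and 0 of the 8 genes were called in these comparisons, against 22.8%, 28.0% and 8.83% of all genes.

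The second question was whether a loss of *YTHDF2*, which encodes a reader of the mark, goes with a change of the writers and erasers. The guide (antisense) strands of the 2 siRNAs in the mixture are shown because they define the treatment, each read from the 5′ end, with bases 2 to 8, the seed, in capitals.
s28148: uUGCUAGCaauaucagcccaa
s28147: uGGUCUAUaguauucaugcca
The targeted gene stood at 111.54 and 158.61 FPKM in the NC libraries and at 8.07 and 4.47 in the knockdown libraries. *YTHDF2* fell, with a log2 fold change of -4.25 (SE 0.43, adjusted p = 0.000367), and was called in 12 of 13 settings. The exception was the fit with no filter, in which no gene was called (adjusted p = 0.173). The fit covered 11004 genes, of which 7.98% were called, 2.06% higher and 5.92% lower.

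None of the 7 writer and eraser genes tested was called by limma in the knockdown, where 7.98% of all genes were called. Of the 7, 1 had an unadjusted p under 0.05, *ALKBH5*, against 3245 of the 11004 genes tested. It was also the only one called by the rule of the study, by which 24.8% of all genes were called. *ALKBH5* measured 7.69 and 6.28 FPKM in the NC libraries and 19.3 and 18.7 in the knockdown libraries. The replicates of each group lay close together and the groups were far apart. The log2 fold change was 1.33 (SE 0.42, 95% interval 0.44 to 2.22, unadjusted p = 0.00605, adjusted p = 0.0608), with a mean 2.72-fold higher in the knockdown. The log2 fold change was 1.20 to 1.46 over all alternatives, with adjusted p-values of 0.0221 to 0.248. The summed cumulus cell markers lay at 66.7 and 68.7 FPKM in the knockdown libraries against 35.5 and 37.3. Of the 8 listed, 3 were higher without overlap (*HAS2*, *STAR* and *TNFAIP6*), *AMHR2* was lower without overlap and the others were at 0.37 FPKM or less in every injected library. The summed oocyte markers lay at 3287 and 5278 FPKM against 1572 and 2607. The part of these in the value of *ALKBH5* was not tested, and in bulk samples a change in the number of cells and a change in RNA per cell cannot be told apart.

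*FTO* had a mean under 1 FPKM in the injected libraries and was not tested in the filtered fit. It measured 0.73 and 2.17 FPKM in the NC libraries and 0.57 and 0.48 in the knockdown libraries, both below both NC values. A fit with no filter gave -0.62 (adjusted p = 0.430). In that fit limma called 0 of 20357 genes, with 3731 at an unadjusted p under 0.05. The ratio of *ALKBH5* to *FTO* was 10.5 and 2.89 in the NC libraries and 33.9 and 39 in the knockdown libraries.

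*WTAP* measured 22.86 and 22.01 FPKM in the NC libraries and 26.16 and 36.57 in the knockdown libraries. The groups did not overlap, and the log2 fold change was 0.45 (95% interval -0.43 to 1.32, adjusted p = 0.482). It ran from 0.21 to 0.68 without 1 library. Of the 7 genes tested, 2 were higher without overlap and 0 lower, against 30.3% and 30.7% of all genes. *FTO*, which was not among the 7, lay lower without overlap.

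The other writers overlapped between the knockdown and NC groups. *METTL14* measured 9.43 and 14.85 FPKM in the NC libraries and 8.75 and 20.45 in the knockdown libraries (log2 fold change 0.17, 95% interval -0.85 to 1.18), and *METTL3* measured 5.5 and 3.08, then 2.92 and 5.41 (-0.04, 95% interval -1.01 to 0.93). *ZC3H13* measured 13.28 and 9.57, then 15.09 and 9.29 (0.07, 95% interval -0.87 to 1.0). *RBM15* measured 14.37 and 13.8, then 17.96 and 8.9 (-0.14, 95% interval -1.09 to 0.81). Each interval reached 0.81 or further from 0 on both sides, so an absence of change was not shown. The ratio of *METTL14* to *METTL3* was 1.71 and 4.82 in the NC libraries and 3.00 and 3.78 in the knockdown libraries (two-sided exact permutation p = 1, where 2 against 2 libraries cannot go below 0.333).

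*CBLL1* differed more within the injected groups than between them. It measured 173.6 and 51.92 FPKM in the NC libraries and 52.01 and 193.37 in the knockdown libraries, a 3.34-fold and a 3.72-fold gap between replicates. In the untreated groups the highest library held at most 1.39-fold the lowest. The log2 fold change in the knockdown was 0.08 (95% interval -1.21 to 1.37, adjusted p = 0.943), and the share of *CBLL1* in the summed writer FPKM was 72.6% and 45.1% in the NC libraries and 42.3% and 70.6% in the knockdown libraries.

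Since the tables of injected embryos had a normalization of their own, their levels are set beside the untreated ones without a test. *WTAP* measured 22.86 and 22.01 FPKM in the NC embryos against 9.62 to 12.9 in the untreated 8-cell stage embryos, and *RBM15* 14.37 and 13.8 against 3.75 to 9.46. *METTL14* was lower in the NC embryos, at 9.43 and 14.85 FPKM against 25.5 to 27.4, and so were *ALKBH5*, at 7.69 and 6.28 against 15.4 to 68.2, and *CBLL1*, at 173.6 and 51.92 against 217 to 302. *YTHDF2* stood at 111.54 and 158.61 FPKM in the NC embryos against 10.8 to 16.7.

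The genes around the pathway gave a background for these values, to be read against the 24.7% and 27.3% of all genes that were called higher, and the 6.42% and 10.0% called lower, in 4- and 8-cell embryos against MII oocytes. Between the 8- and 4-cell stages 3.06% of all genes were called higher and 5.24% lower, and in the knockdown 2.06% and 5.92%. Of 8 other methyltransferase genes and cofactors, 2 were higher in 4-cell embryos than in the MII oocytes. These were *METTL4*, a relative of *METTL3* (1.51, adjusted p = 0.00462), and *ZCCHC4*, which methylates ribosomal RNA (0.87, adjusted p = 0.0254, called in 12 of 20 settings and 0.37 at the lowest over the scalings). Both were lower again in 8-cell than in 4-cell embryos, by -1.24 (adjusted p = 0.0346) and -1.02 (adjusted p = 0.0366), but these falls were called in 6 of 19 and 6 of 20 settings. *METTL4* measured 1.30, 0.445 and 0.432 FPKM in the MII libraries, 4.42, 4.74 and 2.51 in the 4-cell libraries and 0.907, 0.847 and 1.36 in the 8-cell libraries. It was the only one of the 8 called in the knockdown, at 2.09 and 0.41 FPKM against 5.97 and 6.02 in the NC libraries (-1.74, adjusted p = 0.0355, called in 6 of 12 settings). *VIRMA* (listed as *KIAA1429*), the large scaffold of the regulatory part of the writer complex, measured 6.49, 7.07 and 6.45 FPKM in the MII libraries, 4.59, 4.80 and 3.50 in the 4-cell libraries and 3.51, 1.89 and 3.47 in the 8-cell libraries. It fell in 8-cell embryos against MII oocytes (-0.98, adjusted p = 0.0111), and was called in all 19 settings.

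The YTH domain genes, which read the mark, had 3 of 5 called higher in 4-cell embryos (*YTHDC1*, *YTHDF1* and *YTHDF3*) and 2 of 5 in 8-cell embryos (*YTHDC1* and *YTHDF2*) against MII oocytes. Of all genes, 24.7% and 27.3% were called higher in these comparisons. *YTHDF3* was called in 8 of 20 settings, and its value fell to 0.045 under another scaling. *YTHDC1*, the nuclear reader, rose by 2.29 (adjusted p = 0.000547) and 1.96 (adjusted p = 0.000836) on the log2 scale. Between the 8- and 4-cell stages *YTHDF2* alone was called, higher by 1.30 (adjusted p = 0.0174), where 3.06% of all genes were called higher. In the knockdown *YTHDF2* alone was called, lower, where 5.92% of all genes were called lower. *YTHDC1* was not called there, at 31.05 and 42.31 FPKM in the NC libraries and 21.23 and 13.95 in the knockdown libraries (-1.03, unadjusted p = 0.0282, adjusted p = 0.128 in limma).

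Of 7 other genes of the AlkB family, which hold demethylases of DNA and RNA, 6 were tested at the stages. Of these, 1 fell from the MII oocytes to each embryo stage, where 6.42% and 10.0% of all genes were called lower. It was *ALKBH6*, at 2.89, 5.89 and 2.64 FPKM in the MII libraries, 0.868, 1.07 and 0.326 in the 4-cell libraries and 0.805, 0.511 and 0.566 in the 8-cell libraries, with log2 fold changes of -1.42 (adjusted p = 0.00746) and -1.51 (adjusted p = 0.00436). *ALKBH8*, a tRNA-modifying enzyme, was called lower between the 8- and 4-cell stages (-0.74, adjusted p = 0.0406, in 5 of 20 settings). None of the 7 was called in the knockdown, where *ALKBH3* (-1.03) had an unadjusted p of 0.0283 and an adjusted p of 0.128 in limma.

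The 5 genes of S-adenosylmethionine supply provide and recycle the methyl donor that the writers use. The catalytic and regulatory subunits of the synthetase, *MAT2A* and *MAT2B*, rose at both stages against MII oocytes. *MAT2B* measured 143.9, 174.0 and 147.8 FPKM in the MII libraries, 323, 406 and 595 in the 4-cell libraries and 622, 468 and 460 in the 8-cell libraries, with log2 fold changes of 1.46 (adjusted p = 0.00171) and 1.72 (adjusted p = 0.000550) that were called in all 20 settings. *MAT2A* rose by 1.03 (adjusted p = 0.0427, called in 9 of 20 settings and 0.53 at the lowest over the scalings) and 1.25 (adjusted p = 0.0163, called in 16 of 20). No gene of the list was called by limma between the 8- and 4-cell stages, where 8.29% of all genes were called. In that comparison 0 of the 5 had an unadjusted p under 0.05, against 2206 of the 9090 genes tested. No gene of the list was called in the knockdown either, where 7.98% of all genes were called. There *MAT2A* measured 103.7 and 84.0 FPKM in the NC libraries and 45.1 and 42.0 in the knockdown libraries (-1.08, unadjusted p = 0.0148, adjusted p = 0.0930 in limma).

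As a description, the genes whose log2(FPKM + 1) followed those of a writer or eraser most closely over the 9 untreated libraries were sought among 5051 or 5052 named genes that averaged 5 FPKM or more. The genes close to *METTL14* included *DNAJC18* (*r* = 0.988) and *IPO5* (0.978), and *METTL3* was closest to *TMEM138* (0.932), *MSN* (0.892) and *ZC3HC1* (0.888). *ALKBH5* was closest to *PIP4K2B* (0.982), *POLDIP2* (0.977) and *MED12L* (0.974), and *WTAP* to *ADORA2B* (0.954), *PTPN18* (0.938) and *NDFIP1* (0.937). Among the 8 genes themselves the closest pair was *ZC3H13* and *RBM15* (*r* = 0.826) and the most opposed pair *METTL3* and *METTL14* (*r* = -0.595). The libraries of a stage share their stage, and each pair of values shares the depth of its library. *ZC3H13*, *RBM15* and *ALKBH5* each had their highest value in 8-cell replicate 1, the library that stood apart. The part of that library in these correlations was not tested.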

How the data were processed

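The deposited tables hold FPKM values per gene and library. For these, the authors ran HISAT2 against the ARS1 assembly, dropped reads without a unique position, counted with HTSeq and converted to FPKM. The injected values were rounded to 2 decimals. Because each library was scaled by its own total, a change in the share of reads on genes moves all values of that library.

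Genes listed once were joined by name, and 33 of 33 genes of the members and pathway lists matched a table of gene symbols. Stages (9 libraries) and injected embryos (4 libraries) were fitted apart with limma 3.58.1 in R 4.3.3 (lmFit, eBayes with a trend) on log2(FPKM + 1), for genes that averaged 1 FPKM or more. Fold changes on this scale understate the change of low genes. Ratios were tested by exact permutation. The fits were tested on simulated data. Alternatives were pseudocount 0.1, no filter, a mean of at least 5 FPKM, 3 rescalings (median ratios, equal summed FPKM, quantile normalization), only the groups compared, limma voom on fragments recovered from the value steps (17917 of 17918 genes, and all 8 members), the replicate number as a block, each library left out, and the thresholds of the study, which the authors put on a count model, put here on the limma fit (the rule of the study). Added after the data were seen were a crossed block for the injected libraries and a fit without 8-cell replicate 1 and MII replicate 2.

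Same-numbered libraries did not deviate together (correlations of -0.51 to 0.20), so the numbers were not taken as pairs. All 8 members were named, up to 4 called genes per pathway list, and the 3 genes most like *METTL3*, *METTL14*, *ALKBH5* and *WTAP*. One of these genes is not reported here. Genes of the pathway lists named without a call (*YTHDC1*, *ALKBH3* and *MAT2A* in the knockdown) were chosen after their values were seen. Members and lists were chosen with earlier results of these data known. No coordinates or promoter and protein sequences were used here. Matplotlib 3.10.9 drew the figures.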

Additional observations from a re-analysis of the deposited data

How the results depend on the processing

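Over 32 results of single genes and 537 alternatives, 451 kept direction and call, 51 changed the call and 35 turned the sign, in 12 results, none of them called. Many of these alternatives leave the log2 fold change as it was by design, so they could change the call but not the sign. They are the other filters, only the groups compared, the blocks and the fits without a library outside the comparison. In 4-cell embryos against MII oocytes 3 genes were called after median-ratio rescaling, 3 with the summed FPKM set equal and 4 after quantile normalization, where 22.6%, 23.1% and 24.0% of all genes were called, against 1 gene and 31.2% on the deposited scale. *METTL14* was not among the 3 with the summed FPKM set equal. The count was 1 to 2 without 1 library. In 8-cell embryos against MII oocytes the count of 2 was 1 with no filter (*CBLL1*) and by the rule of the study (*ALKBH5*). It was also 1 with the summed FPKM set equal (*METTL3*) and without 8-cell replicate 1 and MII replicate 2 (*METTL14*), where *CBLL1* and *ALKBH5* both lost their call, and 0 to 2 without 1 library. Of all genes, 19.6%, 28.0%, 31.2% and 41.3% were called in these 4 settings in this order, and 26.2% to 42.3% without 1 library, against 37.4%. Between the 8- and 4-cell stages the 1 call became 0 with no filter, after median-ratio rescaling or quantile normalization, with only the groups compared, without both libraries and by the rule of the study, and 0 to 1 without 1 library. These settings called 3.66%, 4.59%, 6.93%, 3.08%, 7.48% and 8.83% of all genes, and 2.59% to 7.14% without 1 library, against 8.29%. In the knockdown 1 gene was called at a mean of at least 5 FPKM and by the rule of the study, and 0 without any 1 library, where the lone library was taken to vary like the others. Of all genes 13.6%, 24.8% and 2.73% to 14.7% were called there, against 7.98%.

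With the replicate number as a block, 1 gene was called in 4-cell embryos and 1 in 8-cell embryos against MII oocytes, and 0 between the stages and in the knockdown, where 25.7%, 32.4%, 3.42% and 4.19% of all genes were called. The crossed block gave 1 in the knockdown, with 19.1% of all genes called. Under the block *ALKBH5* in 8-cell embryos against MII oocytes had an adjusted p of 0.0535 in limma and *CBLL1* between the stages one of 0.0823.

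The sign of *RBM15* in 4-cell embryos turned to -0.032 after median-ratio rescaling and to -0.23 with the summed FPKM set equal. In 8-cell embryos against MII oocytes, median-ratio rescaling, equal summed FPKM and quantile normalization gave -0.29, -0.33 and -0.32 for *ZC3H13*, -0.22, -0.25 and -0.22 for *RBM15* and -0.19, -0.22 and -0.21 for *FTO*, and without both libraries *ZC3H13* was at -0.18 and *RBM15* at -0.32. Between the 8- and 4-cell stages *METTL3* was at -0.014 after quantile normalization and *ZC3H13* at -0.077 without both libraries. Without 1 library, the 8-cell values against MII oocytes ran from -0.17 to 0.23 for *ZC3H13*, -0.26 to 0.30 for *RBM15* and -0.13 to 0.26 for *FTO*, and those against the 4-cell stage from -0.19 to 0.41 for *METTL3*, -0.077 to 0.33 for *ZC3H13* and -0.49 to 0.078 for *RBM15*. In the knockdown they ran from -0.39 to 0.32 for *METTL3*, -0.40 to 0.74 for *METTL14*, -0.26 to 0.39 for *ZC3H13*, -0.61 to 0.33 for *RBM15* and -0.86 to 1.02 for *CBLL1*. The log2 difference of the *METTL14* to *METTL3* ratio was 2.08 to 2.80 in 4-cell embryos and 1.18 to 1.90 in 8-cell embryos against MII oocytes, -1.26 to -0.52 between the stages, and -0.52 to 0.97 in the knockdown, where it was negative without NC replicate 1. The cause of these changes was not tested. The voom fit was not run for the injected libraries, whose fragments were not recovered, and *METTL3* and *FTO* gave no value at a mean of at least 5 FPKM.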
